A study of Mus musculus with 12 samples.

Results

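Metabotropic glutamate receptor genes were read in oligo(dT)-selected RNA of adult mouse whole cortex. The 6 genes described are Grm2, Grm3, Grm4, Grm5, Grm7 and Grm8, taken by symbol from the 21769 rows of a table of estimated counts per gene. All 6 had a row, and all 6 were among the 11693 genes that passed the filter on low counts. The samples are 12 libraries, 4 of each of 3 Tet1 genotypes: WT, HxD and KO. Tet1 encodes a dioxygenase that oxidises 5-methylcytosine in DNA, and HxD is the name of the motif with which such enzymes bind iron. By its title, the study concerns what TET1 does in the cortex with and without its catalysis. The labels name the genotypes and the tissue but no strain, sex, exact age or allele. They leave unsaid whether each library is from its own animal, so a p-value here covers the spread among samples, which may be technical.

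Metabotropic glutamate receptors are G protein-coupled receptors that respond to the transmitter glutamate over a slower course than the ion channel receptors. Group I receptors, here Grm5, couple to Gq and phospholipase C and sit mostly at the rim of the postsynaptic density. Group II (Grm2 and Grm3) and group III (Grm4, Grm7 and Grm8) couple to Gi/o, lower cyclic AMP and dampen transmitter release, many of them from the presynaptic side. Grm3 is also a receptor of astrocytes, and Grm7 lies in the active zone of many terminals.

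Estimated counts summed to 5791642 to 10915574 per library, and the 6 receptor genes took 0.0197% to 0.0362% of them. Tet1 was listed at 0 in every WT and KO library and at 1, 0, 63 and 67 estimated counts in HxD 1 to 4, so the gene cannot check the KO label. Gapdh, a glycolytic enzyme of every cell, was listed at 0 in all 12 libraries, so a gene at or near 0 in the table may still have been expressed. The cortical glutamatergic markers Slc17a7 and Tbr1 were present, at means of 2679 and 221 CPM in WT. CPM is the estimated count of a gene scaled by the library's summed counts of tested genes and its TMM factor. In whole tissue, fewer cells of a type and less RNA per cell cannot be told apart.

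Windows before the transcription start, from RefSeq on GRCm38.p6, were found for 4 of the 6 genes: Grm2, Grm3, Grm7 and Grm8. The 250 bases upstream are shown for Grm2 and Grm3, whose levels moved together over the libraries, and for the outermost of the 3 listed starts of Grm8, whose level was the least stable. Capitals mark each CG dinucleotide, the site at which DNA methylation is placed and which TET enzymes act on.
Grm2 (chr9:106656110-106656359, minus strand): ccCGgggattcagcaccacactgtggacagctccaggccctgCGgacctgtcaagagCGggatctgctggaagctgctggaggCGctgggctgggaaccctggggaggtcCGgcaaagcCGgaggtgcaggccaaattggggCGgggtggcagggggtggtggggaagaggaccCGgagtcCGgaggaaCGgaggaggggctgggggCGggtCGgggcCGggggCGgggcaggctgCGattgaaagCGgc
Grm3 (chr5:9725353-9725602, minus strand): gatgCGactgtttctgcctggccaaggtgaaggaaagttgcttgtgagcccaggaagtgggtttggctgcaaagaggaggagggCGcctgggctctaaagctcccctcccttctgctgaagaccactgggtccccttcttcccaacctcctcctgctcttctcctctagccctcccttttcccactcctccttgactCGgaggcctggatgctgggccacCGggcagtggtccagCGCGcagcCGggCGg
Grm8 (chr6:28135147-28135396, minus strand): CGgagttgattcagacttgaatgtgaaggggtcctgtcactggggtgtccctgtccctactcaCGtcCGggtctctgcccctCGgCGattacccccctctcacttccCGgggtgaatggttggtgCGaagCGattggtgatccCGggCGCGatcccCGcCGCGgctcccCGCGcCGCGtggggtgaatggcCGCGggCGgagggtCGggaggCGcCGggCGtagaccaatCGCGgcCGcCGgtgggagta
The Grm2 window held 16 CG sites, a number reached by 25.4% of all 32851 such windows, and the Grm3 window held 8, reached by 43%. The outermost Grm8 window held 29, reached by 6.78%, while the windows of its inner starts held 8 and 2. The 2 Grm7 windows, which overlap each other, held 8 and 9. The median over all windows was 6. These are counts of letters, and neither methylation nor TET1 binding was measured here. The bases checked just after the Grm3 start were not found in a GENCODE transcript of the gene. The same held for the Grm7 window with 8 CG sites, while those of the other windows were found.

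Levels of different genes were compared per length, as CPM per kilobase of the longest GENCODE transcript. Grm3 stood highest, with WT at 53.5 ± 7.42, HxD at 39.7 ± 10.4 and KO at 50.8 ± 4.75 (SD, n = 4). Grm2 followed at 18.7 ± 5.89, 14.8 ± 5.05 and 20.7 ± 2.76, and no library of it reached the lowest Grm3 library of the same genotype. Grm4, which couples to Gi/o and is best known from the cerebellum, stood at 8.86 ± 1.85, 8.09 ± 0.825 and 9.25 ± 2.21. It lay below Grm2 without overlap in WT and KO, but in HxD the lowest Grm2 library, at 8.75, was under the highest Grm4 library, at 9.25. The other 3 genes were far lower. Per kilobase, Grm7 had 1.23 ± 0.564 in WT, Grm5 0.759 ± 0.32 and Grm8 0.701 ± 0.7, and their ranges overlapped in WT and HxD. In KO the Grm7 libraries, at 0.447 to 1.58, all lay above the Grm5 libraries, at 0.0399 to 0.382, and Grm8 overlapped both. Grm5 and Grm7 are known as widely expressed receptors of the forebrain. Gapdh was listed at 0 in all 12 libraries, so a low place in this order may not be low expression. Grm2 and Grm3 have 1 RefSeq transcript each, and the part of transcript number in this order was not tested. Of the 6 genes' summed estimated counts, Grm3 held 44.8% to 60.9% in a library, Grm2 21.2% to 33.6% and Grm4 10.8% to 17.7%.

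**Figure D1:**
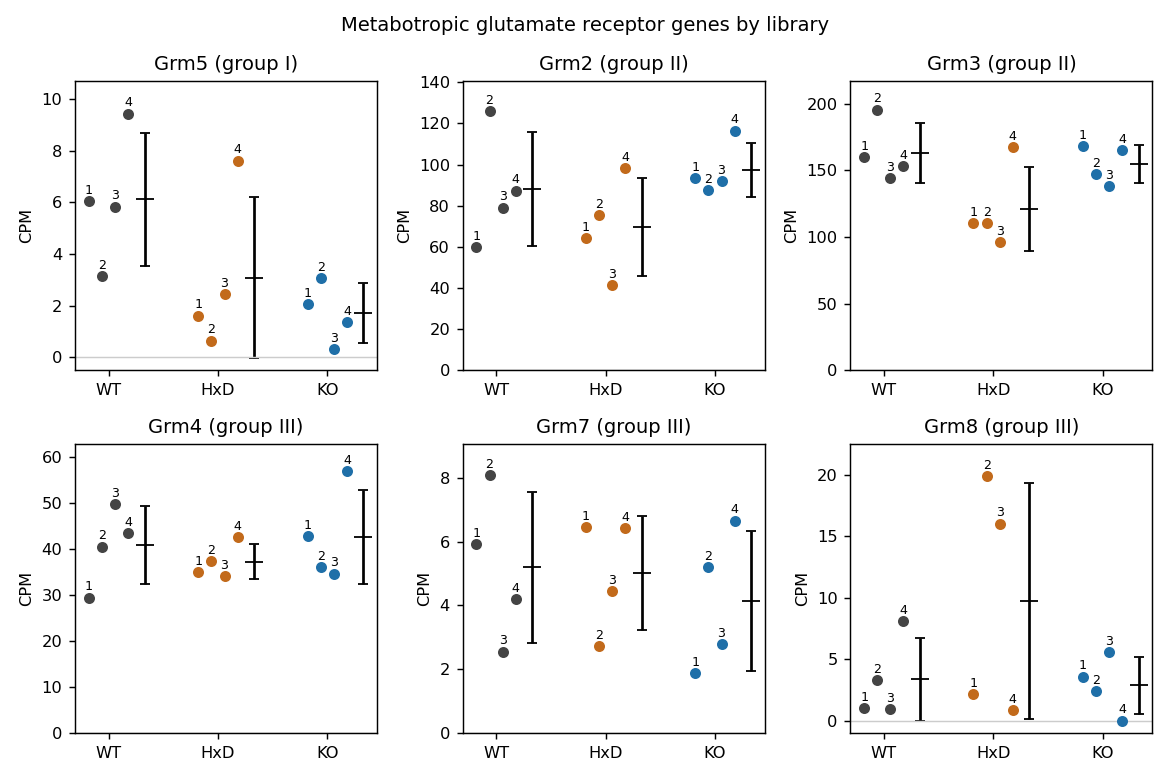
Level of each receptor gene in CPM on the vertical axis, with genotypes on the horizontal axis; points are single libraries labelled by replicate number, and the bar beside them is the mean ± SD of 4 libraries. The 4 KO libraries of Grm5 sit at 0.321 to 3.07, under the WT range of 3.14 to 9.42, while the genotypes overlap for the other 5 genes.

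Grm5, the group I receptor of the set, had 53, 33, 48 and 94 estimated counts in WT 1 to 4. HxD 1 to 4 had 15, 5, 21 and 78. KO 1 to 4 had 12, 23, 3 and 8. Scaled to depth, this was 6.05, 3.14, 5.83 and 9.42 CPM in WT, 1.62, 0.65, 2.46 and 7.61 in HxD, and 2.06, 3.07, 0.321 and 1.37 in KO. All KO libraries lay below all WT libraries, though KO 2 and WT 2 were nearly level, and HxD spanned both because HxD 4 stood well above HxD 1 to 3. The KO against WT log2 fold change was -1.84 ± 0.79 (SE), with a 95% interval of -3.58 to -0.10. It did not pass edgeR's quasi-likelihood test over all genes (unadjusted p = 0.04, adjusted p = 0.493). The exact two-sided permutation test on 4 against 4 libraries gave p = 0.0286, the smallest value that design allows, and it was the only one of 18 such tests (6 genes, 3 comparisons) at that value. Libraries that do not overlap were found for 7.2% of all tested genes in this comparison, 3.95% lower and 3.25% higher in KO. HxD against WT was -0.98 ± 0.76 (edgeR adjusted p = 0.999), and KO against HxD was -0.86 ± 0.77 (edgeR adjusted p = 0.731). HxD 4 set the size of both. Without HxD 4, HxD against WT was larger in size, at -1.95 (edgeR adjusted p = 0.777), and KO against HxD was 0.09. The longest transcript of Grm5, at 8047 bases, was the longest of the 6, and with each library's trend on transcript length removed, KO against WT was -1.75. That trend is drawn over all genes, and the part of length or read assignment in the difference of Grm5 itself was not tested.

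Among the group II receptors, Grm2 is a presynaptic autoreceptor of cortical and thalamic terminals. It stood at 59.9, 126, 79.1 and 87.3 CPM in WT 1 to 4. HxD 1 to 4 had 64.2, 75.3, 41.2 and 98.4. KO 1 to 4 had 93.5, 87.5, 92 and 117. The KO libraries were the most alike, with a coefficient of variation of 13.4% against 31.5% in WT and 34.1% in HxD, and all genotypes overlapped. By edgeR, the log2 fold change was -0.34 ± 0.27 in HxD and 0.14 ± 0.27 in KO against WT, and 0.48 ± 0.27 in KO against HxD (adjusted p = 0.999, 0.935 and 0.525). The difference between HxD and WT was -0.12 without WT 2, -0.16 without HxD 3 and -0.55 without HxD 4, and that between KO and HxD was 0.29 without HxD 3. The 95% interval for KO against HxD ran from a 0.922-fold to a 2.11-fold level.

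Grm3, the second group II receptor, found on neurons and on astrocytes, had the highest counts of the set. WT 1 to 4 stood at 159.6, 196, 144 and 153 CPM. In HxD 1 to 4 it was 111, 110.4, 95.9 and 167. KO 1 to 4 stood at 168, 147, 138 and 165. HxD 1 to 3 were lower than every WT and KO library, and HxD 4 was within the WT range. HxD against WT was -0.43 ± 0.17 on the log2 scale, a 0.743-fold level with a 95% interval of 0.575 to 0.959. It had an unadjusted p of 0.0265 and an adjusted p of 0.999 in edgeR, and the exact permutation test gave p = 0.114. Without HxD 4 the log2 fold change was -0.63 and the edgeR adjusted p 0.0591, so 1 library set the size of this difference. KO against HxD was 0.35 ± 0.17 (edgeR adjusted p = 0.449) and 0.54 without HxD 4, and KO against WT was -0.08 ± 0.17, with an interval of 0.735-fold to 1.22-fold. The summed level of 9 striatal markers ranged from 259.9 to 1123 CPM over HxD libraries, against 400.5 to 670.3 for WT and 292 to 436 for KO. It was highest in HxD 3, where Grm2 and Grm3 were lowest, and lowest in HxD 4. Over the 12 libraries this sum ran inversely to Grm3 (r = -0.711, permutation p = 0.00955, adjusted 0.102; rho = -0.497, permutation p = 0.104, adjusted 0.488) and to Grm2 (r = -0.697, permutation p = 0.0127, adjusted 0.102; rho = -0.587, permutation p = 0.0489, adjusted 0.425), adjusted over 24 relations. Without HxD 3 and HxD 2 the r was -0.306 and -0.366, so both relations rest on those 2 libraries. By gene, 7 of 8 tested striatal markers were above 0 in HxD against WT (median log2 fold change 0.65). In KO, 0 of 8 were above 0 against WT (median -1.25) and 0 of 8 against HxD (median -2.31). Of all tested genes, 51.3%, 50.9% and 50.2% were above 0 in these comparisons. By edgeR 0 of the 8 were called, and their part in the receptor differences was not tested.

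Among the group III receptors, Grm4 had the highest level. It stood at 29.4, 40.6, 49.8 and 43.5 CPM in WT 1 to 4. HxD 1 to 4 had 35, 37.3, 34.2 and 42.6. KO 1 to 4 had 42.8, 36.1, 34.6 and 56.9. The genotypes overlapped, and log2 fold changes were -0.13 ± 0.19 for HxD and 0.06 ± 0.19 for KO, both against WT, and 0.19 ± 0.19 between KO and HxD (edgeR adjusted p = 0.999, 0.96 and 0.764). The 3 intervals together spanned a 0.683-fold to 1.53-fold level, so differences of 2-fold lay outside them.

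Grm7, the receptor of the presynaptic active zone, had 21 to 85 estimated counts per WT library, 21 to 66 per HxD library and 11 to 39 per KO library. In CPM it was 5.93, 8.09, 2.55 and 4.21 in WT 1 to 4. HxD 1 to 4 had 6.46, 2.73, 4.45 and 6.44. KO 1 to 4 had 1.88, 5.21, 2.78 and 6.66. High and low libraries occurred in each genotype. The log2 fold change was -0.05 ± 0.48 in HxD and -0.33 ± 0.48 in KO against WT (edgeR adjusted p = 0.999 and 0.912), and -0.28 ± 0.48 in KO against HxD (edgeR adjusted p = 0.891).

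Grm8, a presynaptic receptor of scattered neuron types, had 9, 35, 8 and 81 estimated counts in WT 1 to 4. HxD 1 to 4 had 20, 153, 137 and 9. KO 1 to 4 had 21, 18 and 52 and, in KO 4, was listed at 0. HxD 2 and HxD 3 stood above every other library, at 19.9 and 16 CPM, and HxD 4, at 0.878, was among the lowest, a 22.7-fold range within 1 genotype. HxD against WT was 1.52 ± 1.21 and KO against HxD -1.74 ± 1.22 on the log2 scale (edgeR adjusted p = 0.999 and 0.632). The first was 2.43 without WT 4 and 0.91 without HxD 2, and 0.78 with limma-voom and 0.93 with the replicate block, and the second was -1.12 without HxD 2. KO against WT was -0.21 ± 1.20, with an interval of 0.138-fold to 5.42-fold that leaves a change of several-fold in either direction undecided.

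No receptor gene passed edgeR's adjusted p of 0.05 in any comparison. The share of all 11693 tested genes past it was 0.898% between HxD and WT, 0.154% between KO and WT, and 1.02% between KO and HxD, and 0 of 6 is close to these shares. The DESeq2 Wald test and limma-voom also called 0 of 6 in each comparison. At an unadjusted edgeR p below 0.05 there was 1 of 6 between HxD and WT (Grm3), 1 between KO and WT (Grm5) and 0 between KO and HxD, where 4.05%, 9.48% and 11.6% of all tested genes were below it. Libraries did not overlap for 0 of 6 genes between HxD and WT and 0 of 6 between KO and HxD, while 3.48% and 7.59% of all tested genes showed this. The comparisons of HxD and of KO with WT share the WT libraries.

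**Figure D2:**
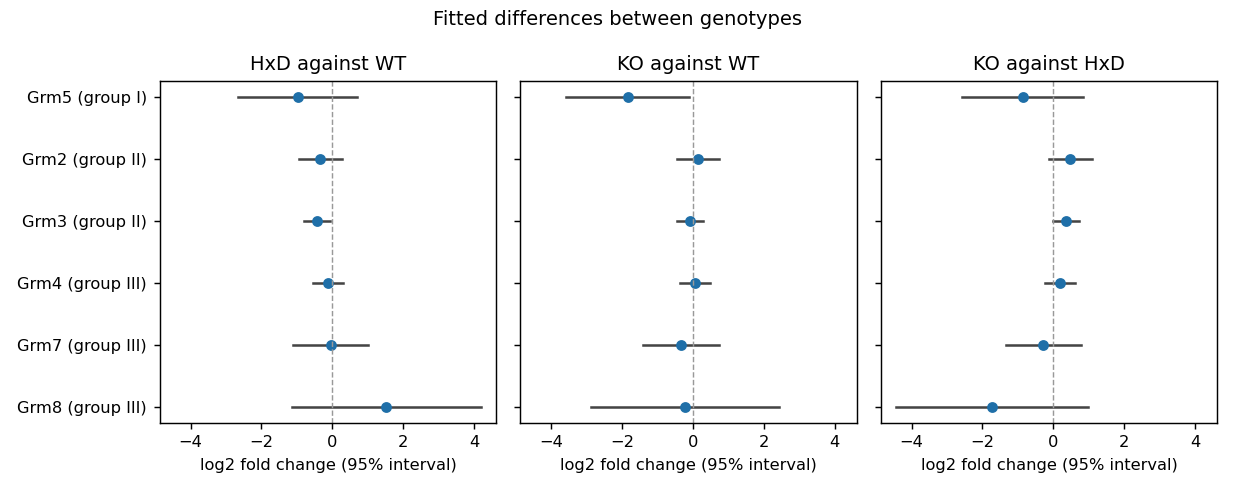
Fitted log2 fold change (point) with its 95% interval (line) for each receptor gene on the vertical axis, one panel per comparison, from the edgeR fit of all 12 libraries. Intervals for Grm3 and Grm4 are the narrowest and those for Grm8 the widest, and the 2 that lie off 0 are Grm3 in HxD against WT and Grm5 in KO against WT.

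How far a difference could be seen varied among the genes. The SD within genotypes on the log2 scale was 0.24 for Grm3, 0.27 for Grm4 and 0.41 for Grm2, and 0.64 for Grm7, 0.93 for Grm5 and 1.6 for Grm8. The median over all tested genes was 0.34. Set against genes of a mean level within 0.5 log2 units of its own, Grm8 was more variable than 82.3% of 1252 genes, Grm2 than 82.7% of 1660 and Grm3 than 66.7% of 1129. Grm5, Grm4 and Grm7 were nearer the middle, more variable than 59.5% of 1254, 58.8% of 1831 and 53.1% of 1180 genes of their level. RefSeq lists 1 transcript each for Grm2 and Grm3, 4 for Grm5, 8 each for Grm4 and Grm8 and 14 for Grm7. Over all tested genes the median SD was 0.26 for those with 1 RefSeq transcript and 0.51 for those with 5 or more, and the part of transcript number in the spread of the receptor genes was not tested. Of the sequence words of 31 bases in a gene's transcripts, at most 0.663% (Grm8) also occurred in transcripts of other genes, and none was shared between the 6. Grm2 shared 8.97% of them in reverse with transcripts on the opposite strand, which matters if strand was not kept in counting.

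**Figure D3:**
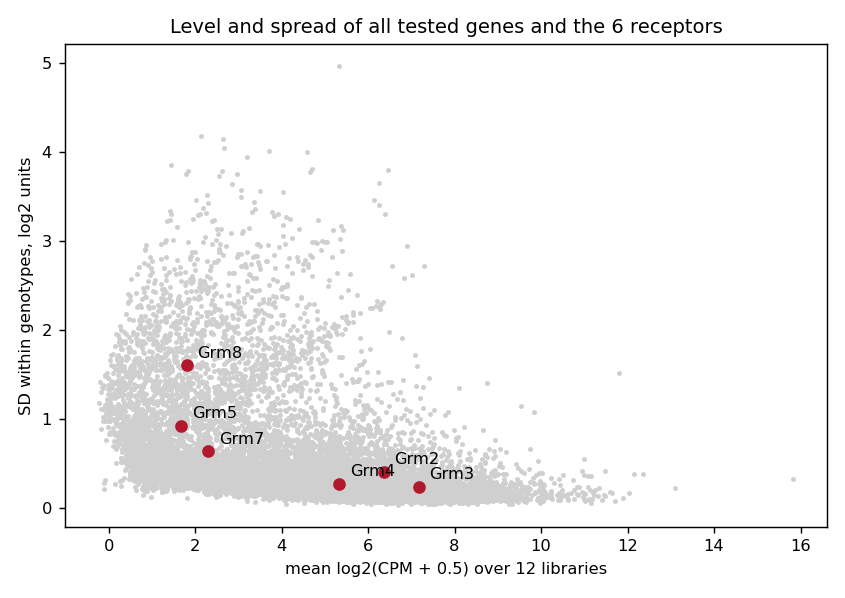
Spread against level: the horizontal axis is the mean log2(CPM + 0.5) over 12 libraries and the vertical axis the SD within genotypes in log2 units, with grey points for all 11693 tested genes and red points for the receptors. Grm2, Grm3 and Grm4 lie at a high level with SDs of 0.24 to 0.41, and Grm5, Grm7 and Grm8 at a low level with SDs of 0.64 to 1.6.

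The group II genes varied together from library to library. Over the 12 libraries, log2 levels of Grm2 and Grm3 correlated at Pearson r = 0.803 (permutation p = 0.00149, Benjamini-Hochberg adjusted 0.0224 over the 15 pairs of receptor genes) and Spearman rho = 0.769 (permutation p = 0.00515, adjusted 0.0772). Without HxD 3 and WT 1, the 2 libraries farthest from the median of Grm2, r was 0.893, and with each genotype centred on its own mean it was 0.783. None of the other 14 pairs passed adjustment of r, the highest being Grm2 with Grm4 at 0.606 (permutation p = 0.0367, adjusted 0.242). Of 11544 other genes, 0.78% reached that r with Grm2 and 0.407% reached it with Grm3. The count ratio of Grm2 to Grm3 averaged 0.535 ± 0.114 for WT, 0.57 ± 0.104 for HxD and 0.63 ± 0.0672 for KO (SD, n = 4), and the genotypes overlapped. In both WT and HxD, Grm2 was higher in libraries 2 and 4 than in libraries 1 and 3, an order that KO did not show. The 4 libraries of a genotype are too few for a correlation within it.

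Grm2 was also set beside the summed level of 7 excitatory neuron markers. That sum spanned 5021 to 7630 CPM over WT libraries, 4383 to 7069 over HxD and 5114 to 6871 over KO, and none of its 7 genes was at 0. Like Grm2, it was higher in libraries 2 and 4 than in libraries 1 and 3 of WT and of HxD, but not of KO. Among 24 relations (6 genes, 4 marker lists), chosen after the values were seen, Grm2 with this sum was the one whose r passed adjustment (r = 0.794, permutation p = 0.00166, adjusted 0.0398). Its rho of 0.692 did not (permutation p = 0.0155, adjusted 0.372). The adjustment does not cover the marker lists that were not chosen, so the pass is a description only. Without HxD 3 and WT 2 the r was 0.533, so the relation rests in part on those 2 libraries. For Grm3 the r was 0.591 (permutation p = 0.0432, adjusted 0.259) and was 0.131 without them. With the 7 astrocyte markers, Grm3 had r = -0.327 (permutation p = 0.3, adjusted 0.72) and rho = -0.559 (permutation p = 0.0631, adjusted 0.425). That r was -0.603 without WT 2 and HxD 2 and -0.606 with genotypes centred, and it did not pass adjustment over all 12. The astrocyte sum spanned 1677 to 2163 CPM over WT libraries, 1682 to 2444 over HxD and 2059 to 2358 over KO.

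**Figure D4:**
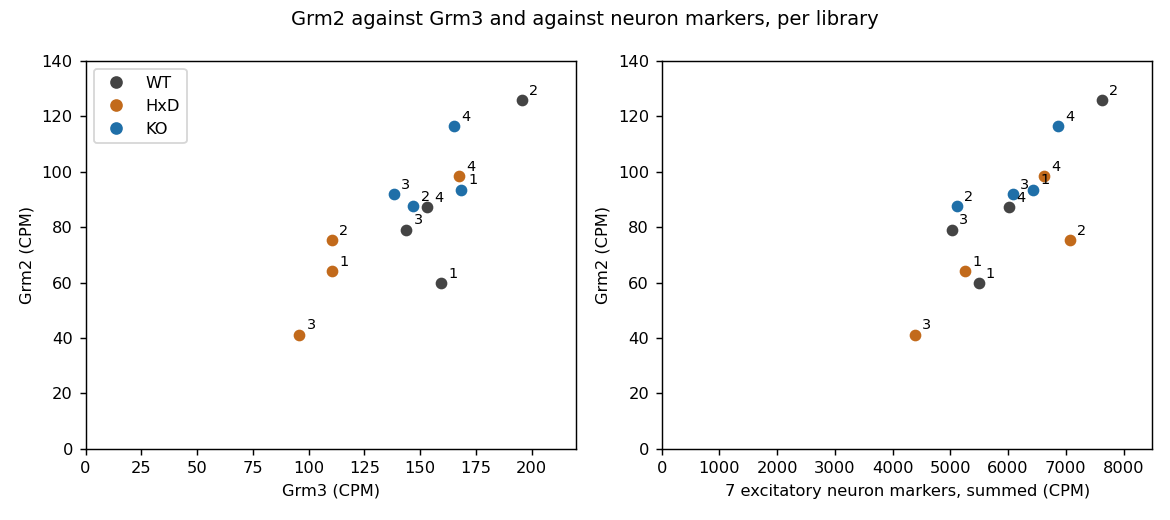
Grm2 in CPM on both vertical axes, against Grm3 in CPM (left) and against the summed CPM of 7 excitatory neuron markers (right); each point is a library, coloured by genotype and labelled by replicate number. HxD 3 is lowest and WT 2 highest on all 3 measures.

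The genes most like each receptor were taken as the 3 with the highest Pearson r of log2 level over the 12 libraries, among genes of at least 1 CPM. Such maxima over 11544 candidates are a description. For Grm2 they were Calm3, a calmodulin gene, at 0.924, Lrrc8b, a volume-regulated anion channel subunit, at 0.917 and the calcium channel beta subunit Cacnb4 at 0.893. For Grm3 they were 4933409K07Rik at 0.932, the phosphatase regulatory subunit Ppp2r2c at 0.929 and Dhdh at 0.925. Grm4 was nearest to Plekho2 at 0.881, Stau1 at 0.875 and Rtn3 at 0.867. Grm5 was nearest to Afmid at 0.841, and to Zfp398 and Dcp2 at 0.824 each. Grm7 was nearest to Adcyap1r1, the PACAP receptor, at 0.874, Fpgs at 0.873 and Aig1 at 0.849. Grm8 had the lowest maxima, 0.814 with Vps72 and with Lsm10 and 0.804 with Pign.

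The pathway around the receptors was read from 5 lists of 100 genes in all, of which 97 had a row and 85 passed the filter. In HxD against WT, 1 of 85 was called higher (0.487% of all tested genes were) and 0 lower, 2.35% had an unadjusted p below 0.05 (4.05% of all tested genes), and the median log2 fold change was 0.03. In KO against WT 0 of 85 was called by edgeR, 10 (11.8%) had an unadjusted p below 0.05, near the 9.48% of all tested genes, and the median was -0.12. In KO against HxD 0 was called higher and 1 lower (0.573% of all tested genes were lower), 17.6% had an unadjusted p below 0.05 (11.6% of all tested genes), and the median was -0.08. Over all tested genes the medians were 0.01, 0.01 and 0.00. Limma-voom called 0 list genes in KO against WT and the DESeq2 Wald test 4.

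The Gq arm that group I receptors drive (G proteins, phospholipase C beta, inositol trisphosphate receptors, protein kinase C, diacylglycerol kinases and TRPC channels) had 17 of 20 genes tested and 0 called in any comparison. In KO against WT, 11 of the 17 were below 0, with a median of -0.22, and 4 (23.5%, against 9.48% of all tested genes) had an unadjusted p below 0.05, 3 of them lower. In KO against HxD 3 did, all lower (17.6%, against 11.6%). Dgka, a kinase that removes diacylglycerol, averaged 15.6 ± 0.996 CPM over KO libraries and 10.9 ± 0.871 over WT libraries (SD, n = 4), without overlap of libraries (log2 fold change 0.52 ± 0.14, edgeR adjusted p = 0.244).

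The Gi/o arm of groups II and III (G proteins, adenylyl cyclases and GIRK channels) had 20 of 23 genes tested, with median log2 fold changes of -0.04 and -0.11 for HxD and KO against WT, and 0.01 between KO and HxD. Its single called gene was Gnb2, a G protein beta subunit. Gnb2 had 19 to 44 estimated counts per WT library, 1645 to 4245 in HxD and 2 to 8 in KO. It was called for HxD against WT (log2 fold change 7.07 ± 0.41, edgeR adjusted p = 2.9e-06) and for KO against HxD (-9.39 ± 0.48, edgeR adjusted p = 9.5e-07). Since Gapdh was listed at 0, the low counts of Gnb2 in WT and KO may not be low expression. What set the counts of Gnb2 was not tested. RGS proteins, receptor kinases and arrestins, which end receptor signals, had 14 of 18 tested and 0 called, with medians of 0.07, -0.29 and -0.18 in the same order. Of these 14, 3 had a group listed at 0 in all its libraries, and the medians were the same with those genes at their bounds. An unadjusted p below 0.05 was found for 42.9% of the 14 between KO and HxD (2 higher and 4 lower in KO, against 11.6% of all tested genes). Between KO and WT it was found for 21.4% (3 lower, against 9.48%). The 3 genes with a group at 0, Rgs6, Arrb1 and Rgs11, were all below 0.05 between KO and HxD. That share thus rests in part on listings of 0. Arrb1 was also below 0.05 between KO and WT. Rgs6 was listed at 0 in all HxD libraries, with 111, 3, 42 and 2 estimated counts in WT and 10 to 20 in KO. Arrb1, an arrestin, was listed at 0 in all KO libraries and HxD 3, with 3 to 72 in WT and up to 797 in HxD.

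Proteins that bind or anchor the receptors (Homer, PICK1, GRIP, ELFN, calmodulin and others) had 16 of 20 tested, 0 called and 0 at an unadjusted p below 0.05 in any comparison. Pick1, which binds the tail of Grm7, stood at 51.9 ± 3.57 CPM in HxD, 45.5 ± 5.08 in WT and 44.4 ± 4 in KO. Elfn2, a postsynaptic protein that binds group III receptors across the synapse, stood near 60 CPM in 3 KO libraries (63.2, 59.2 and 59.8) and at 12.4 in KO 3, against 15.5 to 33.2 in WT (edgeR adjusted p = 0.558). Genes of glutamate supply and clearance had 18 of 19 tested and 0 called, with medians of 0.02, -0.03 and -0.09. Slc1a1, a neuronal glutamate transporter, stood at 115 ± 13.3 CPM in KO and 147 ± 20.2 in HxD (edgeR adjusted p = 0.281).

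**Figure D5:**
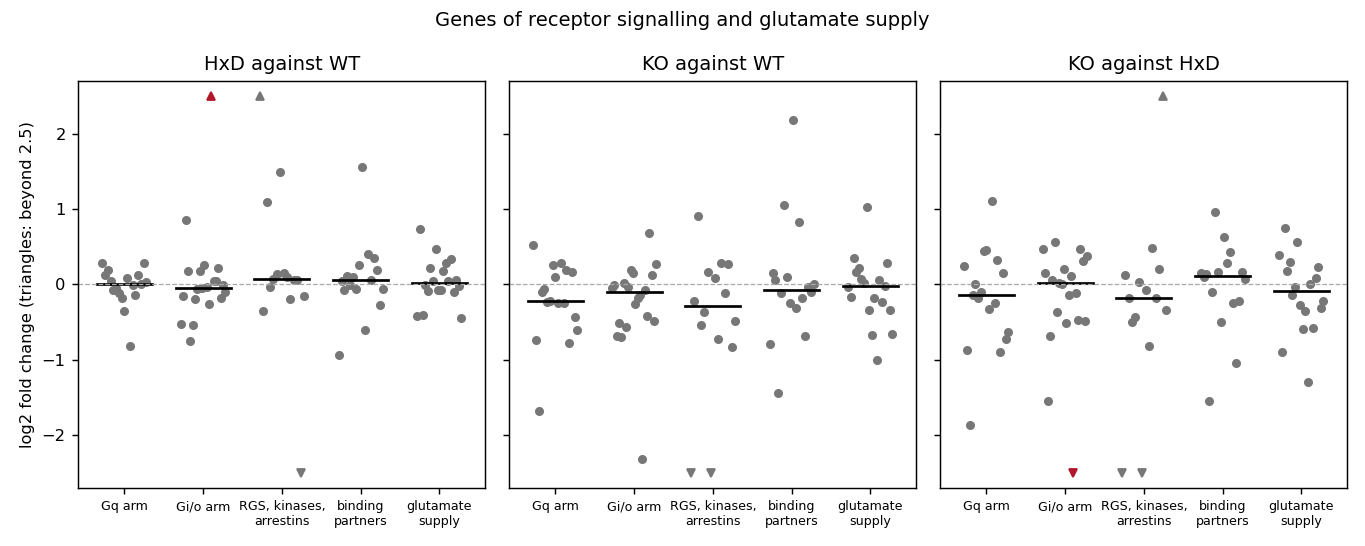
Log2 fold change on the vertical axis of each tested gene in 5 lists on the horizontal axis, one panel per comparison, with the list median as a black bar; red marks genes past edgeR's adjusted p of 0.05, and triangles mark genes beyond 2.5 in size. The red marks are Gnb2 in both comparisons with HxD, and medians lie between -0.29 and 0.12.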

How the data were processed

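Estimated counts per gene symbol were deposited as whole numbers without normalization, and rounding changed none. FastQC, Trim Galore 0.6.7, STAR 2.7.1a, SAMtools 1.9, StringTie 2.2.3, GRCm39 and mm10 are named, without role, per the submitters' processing notes. The strand setting was not given in the sources used here, nor was how reads were assigned to genes. Left out were 25 symbols found on several rows. Groups follow the genotype in the labels. Genes were tested by quasi-likelihood in edgeR 4.0.16 under R 4.3.3 (TMM factors 0.968 to 1.02; filterByExpr minimum count 10; genotype the only term; 9 residual degrees of freedom; Benjamini-Hochberg over 11693 genes). DESeq2 1.42.0, limma 3.58.1, other scalings and filters, a replicate block, a length correction and leaving out libraries were alternatives. Single genes were also tested by exact permutation of log2(CPM + 0.5). Scripts were tested on simulated data. Beside the 6 receptors, up to 4 called genes per list were named, or the 2 of smallest p. Some genes that this rule takes are not reported here. Members and lists were chosen with earlier results of these data known. The labels name no molecular identifiers, so reads are not taken as independent molecules.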

Additional observations from a re-analysis of the deposited data

How the results depend on the processing

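Of 318 values of the receptor genes' 18 differences under other settings, none passed an adjusted p of 0.05, and 306 kept their direction. Grm7 in HxD against WT changed sign with limma-voom (0.0009) and with the replicate block (0.0249). With 1 library left out, the range was -0.28 to 0.24 for it, -0.0139 to 0.35 for Grm2, -0.13 to 0.0102 for Grm3, -0.12 to 0.17 for Grm4 and -0.75 to 0.69 for Grm8, all in KO against WT except Grm7, and -1.32 to 0.0923 for Grm5 in KO against HxD. The cause was not tested. Counts over all genes moved more. The DESeq2 Wald test called 172 genes between HxD and WT, 288 between KO and WT, and 397 between KO and HxD, against 105, 18 and 119 by edgeR, and 2, 4 and 5 list genes against 1, 0 and 1. For KO against WT, limma-voom called 0 genes (1145 at an unadjusted p below 0.05), the fit on the 8 libraries compared 0 (1171), the replicate block 5, and leaving out 1 library 12 to 35, with 35 without WT 4. Limma-voom called 0 list genes for KO against HxD (17 at an unadjusted p below 0.05). Same-numbered libraries did not deviate together (correlations of -0.07 to 0.08), so the block pairs numbers only. Between WT and HxD, though, all pairs of an odd with an even number had negative correlations. These ran from -0.118 (WT 3 with HxD 4) to -0.011 (WT 3 with HxD 2). Pairs of 2 odd or 2 even numbers ran from -0.014 (WT 2 with HxD 2) to 0.078 (WT 3 with HxD 3). What lies behind this split was not tested, and the permutation p-values take libraries as interchangeable. At a minimum count of 50, Grm5 and Grm8 were not tested. Low counts limit Grm5, Grm7 and Grm8.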
